A study of Mus musculus with 12 samples.

Results

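The regions described here are the peaks of N6-methyladenosine (m6A) that the authors' deposited table centres in a 3′ untranslated region (3′UTR). They were chosen by the table's class of the peak centre alone, which gave 373 of 1233 listed peaks, in 355 of 1108 genes. The knockout group was β-Mettl3-KO, which carries Mettl3 flox/flox and RIP-Cre, and the control group was Mettl3 flox/flox with no Cre named in its labels. Both were C57BL/6 mice of 8 weeks on normal chow. Islet RNA of 12 knockout mice and of 9 control mice was pooled into 3 pools per genotype, and each pool gave a library of immunoprecipitated RNA (IP) and an input library. RIP-Cre is Cre driven by the rat insulin promoter, so that other islet cells should keep the allele.

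In m6A a methyl group sits on an adenosine inside RNA. The enzyme METTL3 catalyses its addition within a larger writer complex, mostly at the motif DRACH (D is A, G or T, R is A or G, H is A, C or T), and in mRNA the mark is densest around the stop codon and in the 3′UTR. There it is read by proteins of the YTH family, among them YTHDF2, which is known for directing marked transcripts to decay. In β-cells the transcripts that carry it include those of transcription factors and of insulin signalling. In MeRIP-seq, RNA fragments are pulled down with an antibody against m6A, and enrichment is the library-scaled read level (RPM, reads scaled to the library total) of a region in the IP library over the RPM of the same region in the input library of that pool. Enrichment therefore moves with the input as well as with the IP.

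The motif match nearest the middle of a peak shows what these regions look like, taking GGACT, the form of DRACH most often linked to m6A in mammals, before other forms. The sequences below are from GENCODE M21 transcripts (GRCm38), are written 5′ to 3′ with T for U, and have the matched letters in capitals. The first 8 belong to peaks whose enrichment fell in the knockout. A match is a description of letters and not a mapped m6A site.
Defb1 at chr8:21794855-21794879, plus strand, 3′UTR: acacggaatgGAACAgagaacacgg
Ppp1r3d at chr2:178411824-178411848, minus strand, 3′UTR: ctacctttctGGACTgagaaaagtt
Zfp292 at chr4:34805002-34805026, minus strand, coding sequence: aatccagataGGACTgttttaaaag
Irs2 at chr8:10985258-10985282, minus strand, 3′UTR: agggacagtaGGACTgatctgctga
Txnip at chr3:96560866-96560890, plus strand, 3′UTR: tgttttaaagGGACTtttaaattgt
Glis3 at chr19:28262831-28262855, minus strand, 3′UTR: gtggaaggcaGGACTggatagtcag
Ghr at chr15:3320058-3320082, minus strand, coding sequence: attacagcatGAACAgtgcctactt
Casr at chr16:36494051-36494075, minus strand, 3′UTR: atagtcaccaGGACTgtctatcaca

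The next 4 sequences belong to peaks described below whose enrichment rose in the knockout. They are set beside the 2 regions of Mafa, a β-cell transcription factor whose input fell.
Col4a2 at chr8:11448581-11448605, plus strand, 3′UTR: tagtgttttcAAACTaccaaagcaa
Tbc1d16 at chr11:119144620-119144644, minus strand, 3′UTR: gttgctgatcAAACCgacccgggtt
Ormdl3 at chr11:98582098-98582122, minus strand, 3′UTR: ctagaggtggGGACAggatgctgcc
Itm2c at chr1:85907914-85907938, plus strand, 3′UTR: ccaaggggaaGGACTaaagggaggg
Mafa, first region, at chr15:75746823-75746847, minus strand, across the stop codon: tgtgagtgccGGACCctgggcctcg
Mafa, second region, at chr15:75746048-75746072, minus strand, 3′UTR: gggctggcccGGACTcccgcgctgc

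The authors' class was checked against the GENCODE M21 annotation at the spliced midpoint of each peak. Of the 373 peaks, 287 (76.9%) had their midpoint in an annotated 3′UTR, 85 had it in a coding sequence and 1 could not be placed. The class was also uneven by strand. Of the 373 peaks 261 (70.0%) lay on minus-strand genes and 112 on plus-strand genes, while the whole list was split into 620 on the minus strand (50.3%) and 613 on the plus strand. The peaks that the table calls last exon had the opposite skew, with 219 of 265 on the plus strand (82.6%). Among the peaks with a midpoint in a coding sequence 79 were on the minus strand and 6 on the plus strand. All 83 of those that could be judged reached over the stop codon, and their midpoints lay a median of 168 nucleotides (nt) before it. Another 294 listed peaks had their midpoint in an annotated 3′UTR under a different class of the authors. All 581 listed peaks with a midpoint in an annotated 3′UTR were near even by strand, with 298 minus and 283 plus. The peaks are therefore named here by their rule, 3′UTR-centred by the authors' class. Among those named below, GENCODE places in the coding sequence the midpoints of Amigo2, C1qb, Cbll1, Ghr, Gm3604, Itpk1, Mdm2, Pdik1l, Platr25, Prss23, Sil1, Slc8a1, Ttc30b, Ubr1, Zfp292 and Zfp869, of the first Mafa region, of the first Rnf146 peak and of 1 peak each in Tbc1d8 and Zfp810.

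Within their transcripts the 287 peaks placed in 3′UTRs sat further downstream than the other listed peaks of 3′UTRs. Their midpoints lay a median of 553 nt after the stop codon (quartiles 242 and 1390 nt), or 30% of the way along a 3′UTR of median length 2277 nt. For the 294 other peaks the median was 160 nt. Within 400 nt of the stop codon were 120 of the 287 (41.8%), against 82.3% of the 294 other peaks and 24.7% of all windows tiled over annotated 3′UTRs. The stretch nearest the 3′ end, the last 10% of the 3′UTR, held 10 midpoints. The most distant was in Ksr2, a scaffold of the Ras and MAP kinase pathway, at 8960 nt after the stop codon. No test was made of these positions, since the class itself is defined by position.

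**Figure D1:**
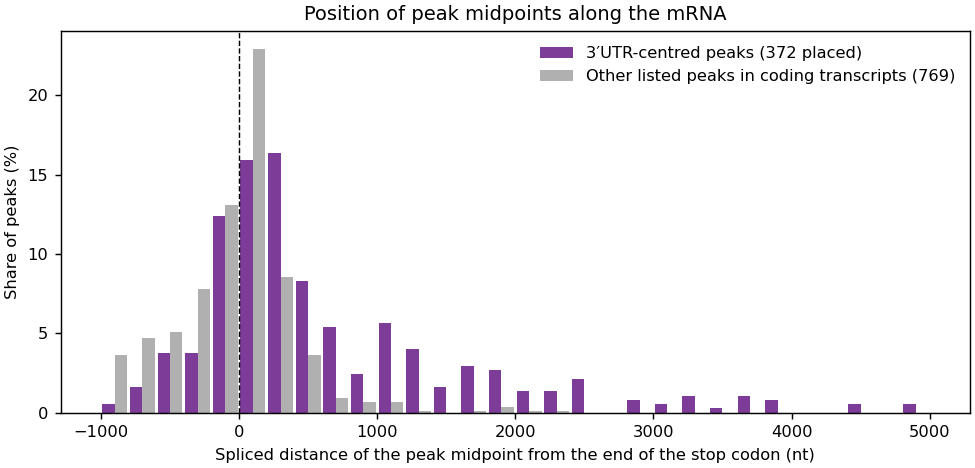
Share of peaks (%) by the spliced distance of the peak midpoint from the end of the stop codon (nt, dashed line at 0, negative values in the coding sequence), for the 372 placed 3′UTR-centred peaks (purple) and 769 other listed peaks of coding transcripts (grey). The grey bars are highest just after the stop codon, and the purple bars reach far into the 3′UTR; 8 purple and 211 grey peaks lie outside the plotted range and count in the shares.

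The letters around the midpoints were close to those of the other listed peaks and richer in GGAC than 3′UTRs at large. A window of 50 nt to either side of the spliced midpoint held at least 1 DRACH match in 356 of 372 peaks (95.7%), against 92.3% of the other listed peaks and 86.3% of 270359 windows over the annotated 3′UTRs of 19296 genes. GGAC was in 44.1% of the windows of 3′UTR-centred peaks, 43.4% of those of the other listed peaks and 24.2% of all 3′UTR windows. For GGACT the shares were 19.4%, 18.2% and 8.67%. Matches were counted on the transcribed strand only, GGACT counts also as GGAC and as DRACH, and overlapping matches were all kept. DRACH density was 2.72 matches per 100 nt at the midpoint, 2.01 at 500 nt upstream and 1.88 at 500 nt downstream.

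**Figure D2:**
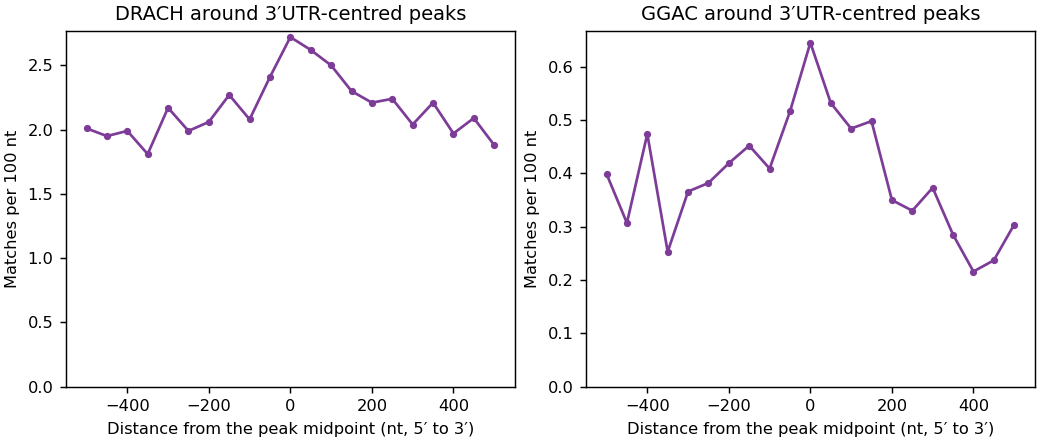
Matches per 100 nt of DRACH (left) and GGAC (right) against distance from the peak midpoint (nt, 5′ to 3′ along the spliced transcript) for 3′UTR-centred peaks, each point being 1 step of 50 nt. Both curves are highest at the midpoint, at 2.72 per 100 nt for DRACH.

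More matches went with larger falls as a description over peaks, which are not replicates. The median change in enrichment, on the log2 scale and negative where lower in the knockout, was -0.85 for the 16 windows with no DRACH and -1.26 for the 90 windows with 4 or more. Spearman's rho between the number of matches and the change was -0.22 over 372 peaks. Neighbouring measures moved too, with rho 0.28 for the percent of G and C in the window and 0.35 for the mean input count. Distance from the stop codon showed no such relation (rho 0.01 over 287 peaks). The 20 peaks that the authors' table gives as higher in the knockout had no GGACT in any window (the Itm2c match printed above lies outside it), against 72 of 352 windows of lower peaks, and a G and C content of 54.9%, against 47.1%. The shorter GGAC went the other way, in 55.0% of the windows of higher peaks and 43.5% of those of lower peaks.

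Total reads were between 16832779 and 22257803 per library. The median 3′UTR-centred peak had 282 to 384 reads in the knockout IP libraries and 425 to 780 in the control IP libraries, with 79 to 121 in the inputs. None of the counts was 0. Among 241 low input counts (30 reads at most) 206 were odd numbers, so that values near this floor are uncertain. Control pool 1 had the lowest enrichment of the control pools. Mettl3 itself was not analysed here, so that the labels were not checked at the targeted gene. The pools are separate, per the labels, but animals are not resolved within them.

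Enrichment at the 373 peaks was lower in the knockout islets. The median peak was enriched 4.24, 3.23 and 3.50 times over input in the knockout pools, against 5.30, 8.09 and 9.39 times in the control pools. All 3 knockout pools lay below all 3 control pools. As the mean of the log2 medians this was 1.86 ± 0.20 in knockout and 2.88 ± 0.43 in control pools (SD, n = 3 each), a difference of -1.02 (exact permutation test, 2-sided, p = 0.10, which no split of 6 pools can go below). An enrichment above 2 was reached by 73.5% to 81.8% of the peaks in the knockout pools and by 93.6% to 98.7% in the control pools. The share of all IP reads that fell in these peaks was 1.83%, 1.44% and 1.45% in the knockout and 2.03%, 3.04% and 3.43% in the control (exact permutation p = 0.10). The share of input reads was 0.345%, 0.352% and 0.331% in the knockout and 0.335%, 0.329% and 0.324% in the control.

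**Figure D3:**
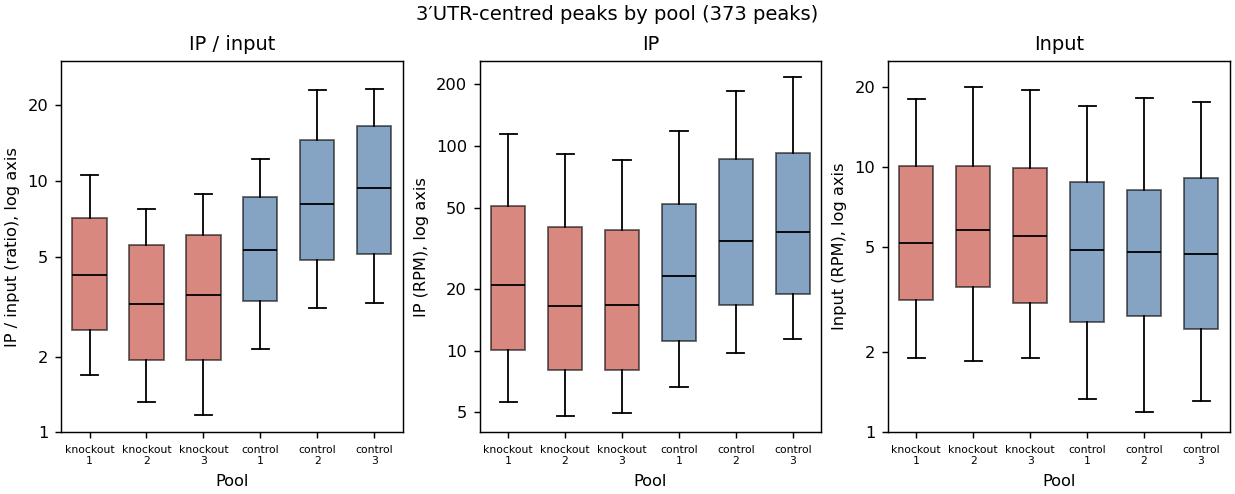
Enrichment (ratio of IP to input RPM), IP RPM and input RPM of the 373 3′UTR-centred peaks in each pool on log axes, knockout in red and control in blue; boxes span the quartiles, lines mark medians and whiskers run to the 10th and 90th percentiles. Enrichment medians are 3.23 to 4.24 in knockout and 5.30 to 9.39 in control pools, while the input boxes lie close together.

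By edgeR's quasi-likelihood test, fitted on all 1233 peaks with Benjamini-Hochberg adjustment over them, enrichment fell at 215 of the 373 peaks (57.6%) and rose at 8 (2.14%). Over the whole list the same rule called 55.6% lower and 2.27% higher, so the shares among 3′UTR-centred peaks were near the background. The list had been selected by its authors for differential enrichment on these same libraries, and the calls are not independent evidence of a change. All 3 knockout pools lay below all 3 control pools at 212 peaks (53.5% of the whole list had this order) and above them at 12 (3.00% of the whole list). The median log2 change was -1.06, against -1.02 over all listed peaks.

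These counts rest on the scaling to total reads and on which pools enter. With TMM factors from the listed rows, which set most listed peaks to no change and move the median of the list to -0.07, 3 of the 373 peaks were called lower and 11 higher, and the median over the 373 was -0.09. Over the whole list of 1233 peaks these factors gave 9 lower and 39 higher. Falls numbered 190, 32 and 44 without knockout pool 1, 2 or 3, and 308, 55 and 47 without control pool 1, 2 or 3. Rises numbered 5, 1 and 0 without the knockout pools in that order, and 11, 0 and 1 without the control pools. With each pool left out in turn 15 peaks kept their call every time, and all 15 were lower. They included Defb1, Ppp1r3d, Zfp292, Ttc30b, Atp2c1 and Platr25, which are described below, and Galr1, Kpna1, Capn2, Vldlr, Ppp1r26 and Amigo2, named after their values were seen. In what follows, fell and rose refer to the scaling to total reads.

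The response of 3′UTR-centred peaks to the knockout was set beside that of other classes in the list, in a design of 3 against 3 pools in which no permutation p can go below 0.10. The median log2 enrichment of the 373 peaks minus that of the 860 other listed peaks was -0.07 ± 0.10 in knockout and 0.02 ± 0.02 in control pools, a difference of -0.08 (SD, n = 3 each, exact permutation p = 0.40). Against the 125 peaks of the authors' class Exon it was -0.02 ± 0.04 in knockout and 0.18 ± 0.12 in control pools, a difference of -0.20 (exact permutation p = 0.10, adjusted 0.30 over 3 classes compared). Against the 265 peaks of the class LastExon, chosen after the values were seen, the difference between genotypes was -0.07 (exact permutation p = 0.30, adjusted 0.40). The level of enrichment, taken over both genotypes, was lower than that of LastExon in 6 of 6 pools, by a mean log2 difference of -0.29 ± 0.06 (SD, n = 6, exact sign-flip p = 0.0312, the smallest 6 pools allow, adjusted p = 0.0936).

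Among the 373 peaks themselves the level of enrichment differed by where GENCODE placed them. The 287 peaks placed in 3′UTRs had median enrichments of 3.70, 2.84 and 3.07 in the knockout pools and 4.72, 7.48 and 8.46 in the control pools. The 85 peaks with a midpoint in the coding sequence had 6.04, 5.14 and 5.73 in the knockout pools and 8.41, 10.4 and 14.4 in the control pools. In each of the 6 pools the second set was higher. These sets were formed after the data were seen, so that the values are a description and support nothing, and the second set was also longer (median length 1020 nt, against 538 nt). It also lay more on the minus strand (92.9%, against 63.1%). Minus-strand peaks among the 373 were higher than plus-strand peaks in 6 of 6 pools, by a mean log2 difference of 0.68. Placement, length and strand were not separated. Enrichment fell at 164 of the 287 and at 50 of the 85. Within the 3′UTR, peaks within 400 nt of the stop codon had median enrichments of 2.92 to 3.69 in the knockout and 4.82 to 7.55 in the control pools, and peaks beyond 400 nt had 2.82 to 3.71 and 4.59 to 8.75.

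The separate changes of IP and input show where the ratio moved. In the IP libraries alone 265 peaks fell (71.0%, whole list 64.8%) and 9 rose (whole list 2.92%) by edgeR. In the input libraries 26 rose (6.97%, whole list 6.00%) and 4 fell (whole list 0.649%). The median log2 change was -0.84 for IP and 0.18 for input, and the input median was -0.03 with TMM factors. Of the 215 peaks with lower enrichment, 165 also fell in IP, and at the other 50 no fall in IP was called. Among these 50 was Prss23, at which IP rose. Input rose at 25 of the 215 (whole list 70 of 686). Enrichment change and input change had a Spearman's rho of -0.75 over 373 peaks, with the input counts shared by both measures.

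**Figure D4:**
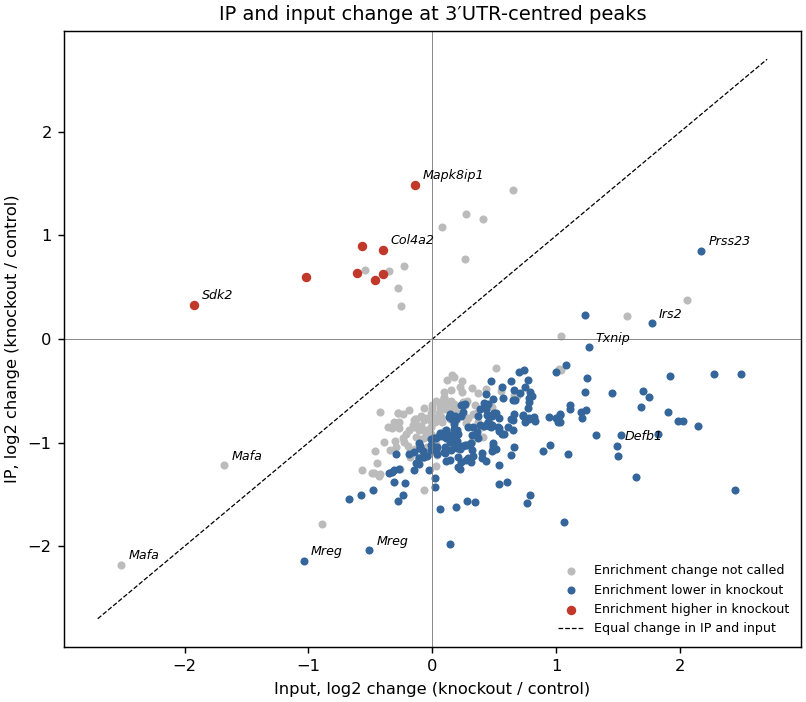
Log2 change between knockout and control in IP (vertical) against that in input (horizontal) for the 373 3′UTR-centred peaks, scaled to total reads; blue and red mark enrichment called lower and higher by edgeR, grey marks no call, and the dashed line marks equal change. Most points lie below the line, the 10th and 90th percentiles of the enrichment change being -1.76 and -0.63. Those of the IP change are -1.25 and -0.38. Both Mafa peaks lie far to the left, and Irs2, Txnip and Prss23 lie to the right. With TMM factors the median change is -0.08 for IP and -0.09 for enrichment.

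Transcription factors of the β-cell were represented by 8 genes, of which 6 fell in enrichment and none rose, beside 55.6% lower over the list (1 peak per gene, median log2 change -1.22, or -0.24 with TMM factors, against -1.02 and -0.07 over the list). Glis3, a factor needed for insulin gene transcription, had its peak 277 nt after the stop codon (chr19:28262297-28263107). Its enrichment was 11, 5.73 and 4.16 in the knockout pools and 7.64, 15.5 and 22.9 in the control pools. The groups overlap, since knockout pool 1 lay above control pool 1. The log2 change was -1.18 ± 0.42 (SE, edgeR adjusted p = 0.017), with IP lower by 0.98 and no called change in input (log2 change 0.20). Mlxipl, which encodes the glucose-responsive factor ChREBP, had enrichments of 3.19, 1.72 and 2.22 in the knockout and 3.71, 4.21 and 5.62 in the control pools, which do not overlap (log2 change -0.95, edgeR adjusted p = 0.044). Zfp148, a zinc-finger factor, had 3.04, 1.54 and 1.04 in the knockout and 2.28, 4.81 and 5.13 in the control pools (log2 change -1.26, edgeR adjusted p = 0.025). The others that fell were Esrrg, Ssbp3 and Rfx3, with IP lower and no called input change at each of them. Nfatc1, a factor that calcineurin activates, had 4.15, 5.25 and 10.8 in the knockout and 31.7, 6.62 and 15.7 in the control pools and passed no test (log2 change -0.98, edgeR adjusted p = 0.12).

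Mafa, which drives insulin transcription in mature β-cells, differed from the other factors in its input. The region around its stop codon (chr15:75746532-75747246) had input levels of 49.0, 25.8 and 15.6 RPM in the knockout pools and 193, 160 and 161 RPM in the control pools. Its second region, 847 nt after the stop codon, had 4.15, 4.82 and 4.48 RPM in the knockout and 13.9, 18.1 and 11.2 RPM in the control. The groups are far apart at both, and the input fell by 2.51 ± 0.26 on the log2 scale at the first (SE, edgeR adjusted p = 2e-18) and by 1.68 at the second (edgeR adjusted p = 3.9e-05). In bulk islets, fewer β-cells and less RNA per cell cannot be told apart. IP fell as well, by 2.18 and 1.22 on the log2 scale. Enrichment at the stop codon region was 7.82, 10.6 and 29.0 in the knockout and 9.68, 5.30 and 14.4 in the control pools, which overlap. The change in enrichment was not called at either region (log2 change 0.33 at the first, edgeR adjusted p = 0.36, and 0.46 at the second, edgeR adjusted p = 0.30), and the first became -0.16 without knockout pool 3, where the input was lowest. The authors' deposited table gives both regions as higher in the knockout.

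Insulin signalling was represented by Irs2 and Sesn3, and both fell in enrichment, beside 55.6% lower over the list. With TMM factors neither was called, the log2 changes being -0.67 for Irs2 and 0.07 for Sesn3. Irs2 encodes an adaptor that carries the signal of the insulin and IGF1 receptors, and its peak lay 1745 nt after the stop codon (chr8:10985011-10985520), 74.9% along the 3′UTR. Enrichment was 7.72, 5.46 and 7.20 in the knockout pools and 16.4, 24.6 and 20.3 in the control pools, with no overlap. Its IP level was 85.7, 68.8 and 64.5 RPM in the knockout and 46.2, 80.0 and 71.2 RPM in the control pools, and the input level was 11.1, 12.6 and 8.97 RPM in the knockout and 2.82, 3.25 and 3.51 RPM in the control. The IP levels overlap, and the inputs of all knockout pools lie above those of all control pools. The input log2 change was 1.77 and passed the test (edgeR adjusted p = 2.2e-06), the IP change was not called (0.15, edgeR adjusted p = 0.60) and the enrichment change was -1.62 ± 0.42 (SE, edgeR adjusted p = 0.0024). Without knockout pool 2 the enrichment change was -1.46 and lost its call, while the input call was kept with each pool left out. Sesn3, an inhibitor of mTORC1 that responds to amino acids, had a peak 6120 nt after the stop codon with enrichments of 5.34, 2.73 and 2.43 in the knockout and 3.26, 8.07 and 7.33 in the control pools (log2 change -0.93, edgeR adjusted p = 0.042). Here the IP fell by 1.03 and the input had no called change (-0.10).

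Genes of glucose sensing and ion transport counted 4, and 3 fell in enrichment (Txnip, Atp2a2 and Cacna1d), beside 55.6% lower over the list. The median log2 change of the 4 was -1.14, or -0.14 with TMM factors, and that of Atp2a2 was 0.03 with TMM factors. Txnip encodes a glucose-induced inhibitor of thioredoxin, and its peak lay 283 nt after the stop codon (chr3:96560575-96561050). Input was 49.1, 53.3 and 67.8 RPM in the knockout and 19.0, 28.9 and 23.1 RPM in the control pools, and IP was 312, 237 and 238 RPM in the knockout and 110, 355 and 366 RPM in the control pools. The input groups do not overlap and the IP groups do. Input rose (log2 change 1.26, edgeR adjusted p = 0.0003), IP was not called (-0.08, edgeR adjusted p = 0.76), and enrichment fell by 1.34 ± 0.37 (SE, edgeR adjusted p = 0.0044), a call lost without knockout pool 2 (-1.32), knockout pool 3 (-1.13) or control pool 3 (-1.07). Atp2a2 encodes the endoplasmic reticulum calcium pump SERCA2 and had low enrichment at 28 nt after the stop codon, with 1.69, 1.09 and 0.901 in the knockout and 1.47, 2.58 and 2.91 in the control pools (log2 change -0.94, edgeR adjusted p = 0.029). The voltage-gated calcium channel gene Cacna1d had 2.22, 3.6 and 1.75 in the knockout and 4.34, 8.95 and 11.8 in the control pools, with no overlap.

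The granule and exocytosis list had 3 genes among these peaks. Cplx2 and Cpd fell in enrichment and Exoc6b did not pass, beside 55.6% lower over the list. All 3 fell in IP, beside 64.8% lower over the list. Their directions in enrichment depend on the scaling, since the median of the 3 was -0.83 with total reads and 0.08 with TMM factors. Cpd encodes carboxypeptidase D of the secretory pathway, and its peak lay 2307 nt after the stop codon (chr11:76779413-76780342). Enrichment was 4.57, 3.56 and 3.98 in the knockout and 4.82, 8.83 and 10.3 in the control pools, with no overlap (log2 change -0.97, edgeR adjusted p = 0.029). Cplx2 encodes a complexin that acts on SNARE complexes at fusion, and had 1.91, 1.90 and 3.85 in the knockout and 4.13, 2.82 and 5.65 in the control pools, which overlap (log2 change -0.83, edgeR adjusted p = 0.046). For Exoc6b, an exocyst subunit, the change was -0.80 (edgeR adjusted p = 0.064).

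Receptors and their G proteins were the list with 7 genes, of which 6 fell, where the whole list had 55.6% lower (median log2 change -1.05, or -0.08 with TMM factors, against -1.02 and -0.07 over the list). Ghr, the growth hormone receptor, had one of the strongest IP signals, and GENCODE places its midpoint 371 nt before the stop codon. Enrichment was 14.9, 9.02 and 8.26 in the knockout pools and 13.6, 29.6 and 21.8 in the control pools, overlapping at knockout pool 1 and control pool 1 (log2 change -1.06, edgeR adjusted p = 0.015). Casr, the calcium-sensing receptor, had 11.9, 9.44 and 10.7 in the knockout and 11, 27.8 and 22.6 in the control pools. It fell by 0.88 (edgeR adjusted p = 0.035) with neither IP (-0.41) nor input (0.47) called alone, and had a log2 change of 0.10 with TMM factors. Galr1, the receptor of the inhibitory neuropeptide galanin, had 6.52, 4.72 and 4.27 in the knockout and 8.37, 18.5 and 14.6 in the control pools, with no overlap. Prlr, the prolactin receptor, held 2 peaks, at 1976 and 3759 nt after the stop codon, that fell by 1.13 and 1.21 (edgeR adjusted p = 0.013 and 0.0097). Chrm3, the muscarinic receptor for acetylcholine on β-cells, had 8.06, 6.28 and 4.60 in the knockout and 7.66, 22.0 and 11.8 in the control pools. Gnai3, an inhibitory G protein α subunit, fell too (log2 change -1.04, edgeR adjusted p = 0.037). The orphan receptor Gprc5c did not pass (log2 change -0.63, edgeR adjusted p = 0.29). Adora1, the adenosine A1 receptor, is not in that list and was taken for its input, which was 2.39, 4.25 and 3.01 RPM in the knockout and 7.49, 4.48 and 5.94 RPM in the control pools. These do not overlap, yet the input change was not called (log2 change -0.89, edgeR adjusted p = 0.083), and IP fell by 1.79 (edgeR adjusted p = 3e-06). The enrichment change of Adora1 was not called either (log2 change -0.90, or 0.01 with TMM factors).

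**Figure D5:**
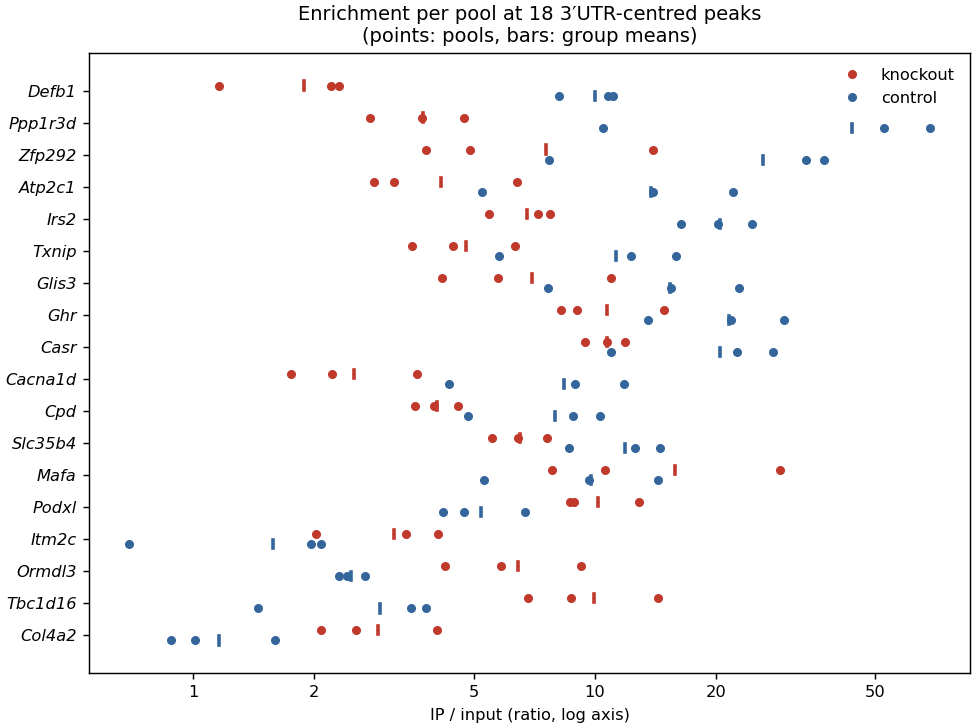
Enrichment (ratio of IP to input RPM, log axis) at 18 3′UTR-centred peaks, with 1 point per pool, knockout in red above control in blue, and a bar at each mean of 3. Toward the bottom Podxl, Ormdl3, Tbc1d16 and Col4a2 have all knockout pools to the right, Itm2c and Mafa overlap, and nearer the top Defb1, Ppp1r3d, Irs2, Cacna1d, Cpd and Slc35b4 have all knockout pools to the left; with TMM factors Casr, Cpd and Slc35b4 change direction.

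Smaller lists held few members. In the list of the endoplasmic reticulum, Derl1, a factor of protein export from that compartment for degradation, had enrichments of 1.31, 1.03 and 1.73 in the knockout and 2.43, 2.7 and 4.59 in the control pools. It fell by 1.36 (edgeR adjusted p = 0.025), and Sil1, an exchange factor of the chaperone BiP, did not pass (log2 change -0.75, edgeR adjusted p = 0.10). From the m6A machinery there was only Cbll1, which encodes HAKAI, a component of the writer complex. Its enrichment was 6.17, 5.38 and 7.12 in the knockout and 9.0, 11.7 and 11.7 in the control pools, with no overlap but no call (log2 change -0.82, edgeR adjusted p = 0.066), and 0.17 with TMM factors. Both chromatin genes fell, beside 55.6% lower over the list, and neither was called with TMM factors (median log2 change -0.99). Smarcc2, a subunit of the BAF remodelling complex, had 2.77, 0.788 and 1.73 in the knockout and 2.45, 3.00 and 6.10 in the control pools (log2 change -1.38, edgeR adjusted p = 0.02). Kdm3b, a histone demethylase, had 1.77, 2.61 and 1.29 in the knockout and 6.43, 6.32 and 93.2 in the control pools, the last over an input of 0.0594 RPM.

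Ubiquitin ligases and related enzymes formed a larger list, and 6 of 12 fell in enrichment with none rising, a share below the 55.6% of the whole list (median log2 change -1.02, the same as over the list, or -0.10 with TMM factors). The 6 were Rnf146, Mdm2, Fbxo11, March9, Ube2h and Ubr1. Rnf146, a ligase that recognises poly-ADP-ribosylated proteins, had 2 peaks, of which the first reaches into Echdc1. At that one enrichment was 10.6, 9.38 and 12 in the knockout and 13.6, 19.1 and 25.3 in the control pools, with no overlap (log2 change -0.90, edgeR adjusted p = 0.036, and 0.11 with TMM factors). The second lay 2334 nt after the stop codon and did not pass (-1.20, edgeR adjusted p = 0.058). March6, a ligase of the endoplasmic reticulum, had 5.84, 2.97 and 4.15 in the knockout and 4.64, 8.65 and 7.09 in the control pools and did not pass (log2 change -0.73, edgeR adjusted p = 0.078). Mdm2, the ligase that degrades p53, had 13, 9.95 and 6.47 in the knockout and 14.2, 32.5 and 18 in the control pools (log2 change -1.14, edgeR adjusted p = 0.015).

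Solute carriers counted 12 genes, of which 10 fell and none rose, beside 55.6% lower over the list (median log2 change -1.07, or -0.10 with TMM factors, against -1.02 and -0.07 over the list). Slc35b4, a nucleotide sugar transporter of the secretory pathway, had a peak 757 nt after the stop codon that holds 5 GGACT matches (chr6:34156559-34159494). Enrichment was 7.60, 6.45 and 5.55 in the knockout and 8.61, 12.6 and 14.5 in the control pools, with no overlap. It fell by 0.86 (edgeR adjusted p = 0.037) but had a log2 change of 0.08 with TMM factors. Slc22a23, an orphan member of the organic ion transporters, had 2 peaks. The stronger gave 4.51, 4.15 and 4.51 in the knockout and 5.63, 8.77 and 11.2 in the control pools (log2 change -0.95, edgeR adjusted p = 0.027), and the weaker, near the 3′ end of the UTR, fell by 2.81 over an input that rose by 2.02. Slc7a5, the light subunit of the large neutral amino acid transporter LAT1, had 4.93, 4.16 and 5.46 in the knockout and 6.14, 9.94 and 13.4 in the control pools. Slc16a10, a carrier of aromatic amino acids, rose in input (12.4, 21.4 and 22.5 RPM in the knockout and 11.3, 9.02 and 7.90 RPM in the control pools; log2 change 1.0, edgeR adjusted p = 0.014). The 2 that did not pass were Slc16a9 and Slc8a1.

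Of 13 zinc-finger genes 9 fell in enrichment and none rose, beside 55.6% lower over the list (median log2 change -1.35, or -0.36 with TMM factors, against -1.02 and -0.07 over the list). Many of them belong to families of near-identical copies, between which reads can be split, and their values are uncertain. Zfp869 had enrichments of 11.5, 9.29 and 8.32 in the knockout and 11.9, 24.0 and 18.8 in the control pools, without overlap (log2 change -0.94, edgeR adjusted p = 0.035, and 0.06 with TMM factors). Zfp292, a large DNA-binding protein, had 14, 4.9 and 3.8 in the knockout and 7.70, 37.3 and 33.6 in the control pools. Knockout pool 1 and control pool 1 overlap, and the change of -1.93 ± 0.41 (SE, edgeR adjusted p = 0.00026) kept its call with each pool left out. Its input rose (log2 change 1.24, edgeR adjusted p = 0.002), with 5.53, 13.2 and 13.7 RPM in the knockout and 6.27, 3.81 and 3.68 RPM in the control pools. The input call was lost without knockout pool 2 (1.07) or 3 (1.03), and with DESeq2 on total reads.

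The smallest p-values for a fall, taken with a mean input count of at least 20, belonged to Defb1, Ppp1r3d, Zfp292, Ttc30b, Atp2c1 and Platr25. Defb1, a β-defensin of epithelia, had enrichments of 2.20, 2.31 and 1.16 in the knockout pools and 8.15, 11.1 and 10.8 in the control pools (chr8:21794604-21795098). The groups are far apart, and the log2 change was -2.53 ± 0.44 (SE, edgeR adjusted p = 1e-05). Its IP fell by 1.03 while its input rose by 1.49, with 10.9, 7.69 and 12.9 RPM in the knockout and 2.18, 4.53 and 4.46 RPM in the control pools. Ppp1r3d, a subunit that targets protein phosphatase 1 to glycogen, had 4.72, 3.71 and 2.76 in the knockout and 10.5, 52.6 and 68.2 in the control pools (log2 change -2.97 ± 0.59, SE, edgeR adjusted p = 0.00011). The high control values stand over inputs of only 0.464 and 0.297 RPM. Ttc30b, which encodes a protein of intraflagellar transport, had 5.78, 4.14 and 3.50 in the knockout and 9.10, 18.3 and 17.0 in the control pools, with no overlap (log2 change -1.77, edgeR adjusted p = 0.00041). Atp2c1, the calcium and manganese pump of the Golgi, had 6.41, 3.16 and 2.82 in the knockout and 5.24, 22.1 and 14 in the control pools, overlapping at the first pool of each (log2 change -1.75, edgeR adjusted p = 0.0014). Platr25, which like Gm3604 lies in a family of near-identical copies and is uncertain, had 9.22, 10.6 and 6.09 in the knockout and 33.6, 56.8 and 20.7 in the control pools. Defb1 and Ppp1r3d were also called lower with TMM factors, and the other 4 were not.

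The highest mean enrichments in the control pools were at Pdik1l, Gm3604, Itpk1 and Ppp1r3d, and each had a control input below 0.5 RPM. Pdik1l, a protein kinase gene, had 25.5, 14.9 and 13.5 in the knockout and 19.2, 243 and 69.2 in the control pools, where the value of 243 stands over an input of 0.464 RPM. Itpk1, an inositol phosphate kinase, had 3.23, 7.57 and 7.11 in the knockout and 11.7, 18.4 and 119 in the control pools, the last over 0.178 RPM. All 4 rose in input and fell in enrichment. Their choice by high control enrichment favours a low control input and both of these directions, so this is a description only. With TMM factors Pdik1l, Gm3604 and Itpk1 lost their calls for input and for enrichment. For Gm3604 the control values ran up to 143.

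Higher enrichment in the knockout was called at 8 peaks, in Itm2c, Mapk8ip1, Castor2, Podxl, Col4a2, Ormdl3, Sdk2 and Tbc1d16. Mapk8ip1, Castor2 and Sdk2 are named here because they complete this count. Col4a2, a chain of type IV collagen of basement membranes, had enrichments of 2.08, 2.54 and 4.05 in the knockout pools and 1.01, 0.878 and 1.60 in the control pools. The groups do not overlap, and the control values are near 1, the level of no enrichment. The log2 change was 1.26 ± 0.43 (SE, edgeR adjusted p = 0.015), and IP rose by 0.86. Without knockout pool 2 or 3 or control pool 2 the changes were 1.29, 1.01 and 1.08 and lost the call. Ormdl3, an inhibitor of sphingolipid synthesis, had 4.23, 5.83 and 9.22 in the knockout and 2.67, 2.30 and 2.42 in the control pools (log2 change 1.25, edgeR adjusted p = 0.029). Tbc1d16, an activator of Rab GTP hydrolysis, had 6.80, 14.4 and 8.70 in the knockout and 3.79, 1.45 and 3.49 in the control pools (log2 change 1.62, edgeR adjusted p = 0.023). Itm2c, an integral membrane protein, had 2.02, 3.39 and 4.07 in the knockout and 2.08, 0.693 and 1.96 in the control pools, which overlap (log2 change 1.03, edgeR adjusted p = 0.037). Mapk8ip1, a scaffold of JNK signalling, had 3.59, 9.15 and 6.09 in the knockout and 2.96, 0.816 and 2.16 in the control pools, with an IP rise of 1.49. The Sdk2 values stand over a mean input count of 18.3 reads and reach 43.7 in knockout pool 3.

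Markers of non-endocrine cells among these peaks were Cldn4, Podxl, Col4a2 and C1qb, 4 of 56 markers listed. Podxl, a sialomucin of endothelium, had enrichments of 12.9, 8.88 and 8.69 in the knockout and 4.73, 4.19 and 6.72 in the control pools, with no overlap (log2 change 1.03, edgeR adjusted p = 0.042). Cldn4, a tight junction claudin of duct cells, went the other way with 4.52, 3.85 and 6.45 in the knockout and 8.36, 7.90 and 16.6 in the control pools (log2 change -1.13, edgeR adjusted p = 0.012). C1qb, a complement gene of macrophages, did not pass (log2 change 0.76, edgeR adjusted p = 0.19). The summed input of the 4 markers was 29.6 to 49.1 RPM in the knockout and 34.0 to 44.6 RPM in the control pools, and no input change was called at any of them. The other 52 markers on the list have no 3′UTR-centred peak in the table. The part of other cell types in these enrichment changes was not tested.

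Rises in input were called at 26 peaks, and enrichment fell at 25 of them. Over the whole list it fell at 70 of 74 such peaks, input being the denominator of enrichment. The smallest p-values among them belonged to Prss23, Irs2 and Txnip. Prss23 is a serine protease gene whose region overlaps the antisense gene Prss23os and whose reads cannot be assigned to a strand here. Its input was 12.4, 9.5 and 14.7 RPM in the knockout and 2.71, 3.56 and 1.84 RPM in the control pools, and its IP was 87.2, 71.7 and 71.3 RPM in the knockout and 27.3, 46.6 and 53.9 RPM in the control pools. Both rose without overlap, by 2.17 (edgeR adjusted p = 4.1e-09) and 0.85 (edgeR adjusted p = 0.0098), and enrichment fell by 1.32. Prss23 was the 1 peak of the 26 at which IP rose. IP fell at 7 of the 26 (whole list 21 of 74), among them Defb1, Ppp1r3d and Ttc30b. Another 2 genes with high reads are named after their values were seen. Rasd1, a small GTPase induced by glucocorticoids, had 30.2, 21.2 and 17.3 RPM of input in the knockout and 9.35, 6.96 and 13.1 RPM in the control pools. Arrdc3, an α-arrestin like Txnip, had 11.1, 10.9 and 14.5 RPM in the knockout and 3.77, 5.51 and 8.02 RPM in the control pools.

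Falls in input were called at 4 peaks, the pair in Mafa and 1 each in Mreg and Sdk2. Mreg encodes melanoregulin, which acts in lysosome and phagosome maturation. At its stronger peak the input was 4.57, 3.25 and 3.66 RPM in the knockout and 8.45, 9.28 and 5.82 RPM in the control pools, without overlap (log2 change -1.04, edgeR adjusted p = 0.025). IP there was 13.4, 7.26 and 9.39 RPM in the knockout and 36.7, 47.6 and 47.8 RPM in the control pools, a log2 change of -2.14, so that enrichment fell by 1.10 (edgeR adjusted p = 0.03). The second Mreg peak, 850 nt after the stop codon, fell by 1.53 in enrichment with no called change in input.

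Several peaks in 1 gene share an RNA and are not replicates. In 17 genes there were 2 or more of these peaks, 35 in all, and the changes within each gene had the same sign in all 17 with the scaling to total reads, under which 353 of all 373 changes were negative. With TMM factors the Rnf146 peaks split, at 0.11 and -0.27. In 7 genes every peak fell (Gtf3c4, Mreg, Prlr, Shroom2, Slc22a23, Tbc1d8 and Zfp810), and in 3 none was called, Mafa and Sec16a among them. Rragc and Fnip2, which act in amino acid signalling to mTORC1 at the lysosome, had 1 of 2 peaks called lower each. Castor2, an arginine sensor homologue of the same pathway, had 1 of 2 called higher. At Rragc the peak 398 nt after the stop codon had 9.03, 6.26 and 6.61 in the knockout and 9.72, 23.1 and 13.7 in the control pools. The peak at 1174 nt had 1.59, 1.73 and 1.27 in the knockout and 1.72, 3.89 and 3.30 in the control pools. At Kpna1, an importin α gene, the distal peak fell by 2.34 and the proximal one did not pass (-1.0). These genes were named after their values were seen, as the ones with more than 1 peak.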

How the data were processed

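MeRIP-seq libraries of islet RNA were compared over 3 knockout and 3 control pools. Tools listed in the submitters' processing notes are HOMER 4.9.1, BWA 0.7.12 and fastp 0.19.11, with the build GRCm38.p6, and which of them called peaks is not stated there. The authors deposited, for each listed peak and library, a read count and the library's total reads. The deposited RPM values are, per the file headers, reads scaled to the library total. Peak fold enrichment is the authors' ratio of IP over input, the deposited log2 fold change compares enrichment between genotypes, and the deposited scores are log10 FDR values. A further 6 deposited columns, 1 per pool, were left out.

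The count model was edgeR 4.0.16 in R 4.3.3 (glmQLFit, glmQLFTest) on all 1233 peaks and 12 libraries in 4 groups, library sizes set to the total reads in the table, no filter on low counts, Benjamini-Hochberg adjustment over 1233 peaks and a threshold of 0.05. The scripts were tested on simulated data. There, 22.0% of enrichment changes of log2 size 1 were called, and 95.0% of those of size 2. Only a small part of the simulated peaks was changed, up and down alike, with a common spread for all peaks. In the real list most peaks shift the same way, so these shares do not carry over to it. A peak that did not pass may still have changed. Enrichment per pool pairs IP and input by the titles' number. Peaks were placed in GENCODE M21 transcripts, and motifs were counted within 50 nt of the midpoint. The level tests enumerate the 6 pools exactly (Python 3.11.15, scipy 1.17.1). Symbols follow the Ensembl identifiers.

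The peaks and gene lists were chosen with earlier results of these data known. The genes named at length have, outside chromosome 18, a mean input count of at least 20 and 1 peak per gene. They are the 6 lower and 4 higher of smallest p for enrichment, 3 of each direction for input, the 4 of highest control enrichment, 2 per list by IP RPM, and the 3 genes with most peaks, 41 peaks in all. Others were named after their values were seen. Alternatives were TMM factors, DESeq2 1.42.0 with total reads or its own size factors, a mean input count of at least 20, halved counts, a replicate block, an authors' peak fold of at least 5, membership by GENCODE, and leaving out each pool. The result of 1 gene that the rule also chose is not reported here.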

Additional observations from a re-analysis of the deposited data

How the results depend on the processing

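Scaling and single pools decided most counts. Falls in enrichment numbered 215 with total reads, 3 with TMM factors and 6 with size factors estimated by DESeq2, and rises numbered 8, 11 and 17. Both scalings assume that most listed peaks do not change, in a list selected for change. The median enrichment change was -1.06, -0.09 and -0.07 in the same order. IP falls numbered 265, 9 and 19, IP rises 9, 18 and 21, and the IP median was -0.84, -0.08 and -0.10. Input falls numbered 4, 11 and 19, and the input median of 0.18 became -0.03 and -0.06. DESeq2 with total reads gave 234 falls and 9 rises. With 1 pool left out, falls in enrichment ranged over 32 to 308 and rises over 0 to 11, IP falls over 92 to 331 and IP rises over 4 to 15, input falls over 2 to 6 and input rises over 11 to 38. Membership by GENCODE gave 339 falls among 581 peaks. An authors' peak fold of at least 5 left 3 rises in enrichment and 2 input falls. The difference of 3′UTR-centred from other listed peaks between genotypes was -0.08 over medians and -0.17 over means. DRACH was in 99.7% of whole spliced peaks, against 95.7% of the windows, where GGAC was in 44.1%.

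Of 32 called peaks of the named genes, 7 kept their call with TMM factors and 32 with DESeq2 and total reads. The enrichment changes that turned sign with TMM factors were those of Sesn3 (0.07), Cplx2 (0.08), Cpd (0.02), Atp2a2 (0.03), Casr (0.10), Rnf146 (0.11), Slc35b4 (0.08) and Zfp869 (0.06). With DESeq2's own size factors they were those of Sesn3 (0.09), Cplx2 (0.11), Cpd (0.04), Atp2a2 (0.05), Casr (0.12), Rnf146 (0.13), Slc35b4 (0.11), Zfp869 (0.08) and Slc22a23 (0.02). Calls kept numbered 29, 9 and 10 without knockout pool 1, 2 or 3 and 32, 12 and 10 without control pool 1, 2 or 3. No 2 listed peaks shared gene and coordinates, so that merging them changed nothing, and merging 3 peaks with identical counts, added after seeing the data, changed no named call.

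The replicate block gave 163 falls and 6 rises in enrichment and kept 23 of the 32 calls. The numbers do not show a pairing, since IP and input of the same number correlated in their deviations by -0.07 to 0.06 and the genotypes by -0.33 to 0.10. Depth limits peaks with few input reads, 61 of 2238 input counts being under 10.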
